A study of Homo sapiens with 24 samples.

Results

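CD14 and the surface toll-like receptor pathway were followed here through 18 Affymetrix probe sets for 10 genes (CD14, TLR2, TLR4, TLR6, LY96, MYD88, IRAK1, IRAK2, CAMP and LBP), out of 54613 probe sets and 19775 genes in the whole series. A probe set was taken when the platform annotation gave it a single symbol and that symbol was one of the 10. The cells were RWPE1, 1 immortalized human prostate epithelial line that does not form tumors, so all groups share its genotype and nothing here extends to other lines. The comparison is of 6 groups of 4 arrays each: cells that received 1,25(OH)2D (100 nM), which is the active vitamin D hormone, for 6, 24 or 48 h, and cells given the ethanol vehicle for 6, 24 or 48 h. In both 48 h groups the medium was renewed at 24 h. The samples are labelled as biological replicates, but their sources do not say that each was a separately passaged culture, so the p-values measure the spread between these samples.

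CD14 is a membrane-anchored protein that binds bacterial lipopolysaccharide, which LBP carries to it, and hands the lipid to the complex of TLR4 and its partner LY96 (MD-2). TLR2, paired with TLR6 or TLR1, recognizes bacterial lipopeptides. Both kinds of receptor recruit the adaptor MYD88 and the kinases of the IRAK family, and the signal reaches NF-kB. CAMP encodes the precursor of the antimicrobial peptide LL-37, and in human cells both CD14 and CAMP are known genes of the vitamin D response.

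The sequences before the start of 3 members are shown because their transcripts rose in these cells. They are the bases just upstream of the annotated start in RefSeq (GRCh38.p14, written 5′ to 3′ on the gene's strand), 250 bases each, and capitals mark half-sites of the vitamin D receptor. CD14 lies on the minus strand (chr5:140633176-140633425), IRAK2 on the plus strand (chr3:10164669-10164918) and CAMP on the plus strand (chr3:48223245-48223494).
CD14: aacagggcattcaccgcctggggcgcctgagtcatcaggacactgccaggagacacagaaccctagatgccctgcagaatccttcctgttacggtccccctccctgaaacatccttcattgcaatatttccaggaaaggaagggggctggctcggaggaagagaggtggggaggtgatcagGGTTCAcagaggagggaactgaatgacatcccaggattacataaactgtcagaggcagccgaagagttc
IRAK2: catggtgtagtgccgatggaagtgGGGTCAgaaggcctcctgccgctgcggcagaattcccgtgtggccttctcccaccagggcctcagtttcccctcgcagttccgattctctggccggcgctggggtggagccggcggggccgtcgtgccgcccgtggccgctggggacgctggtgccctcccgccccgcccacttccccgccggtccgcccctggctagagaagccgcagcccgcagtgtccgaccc
CAMP: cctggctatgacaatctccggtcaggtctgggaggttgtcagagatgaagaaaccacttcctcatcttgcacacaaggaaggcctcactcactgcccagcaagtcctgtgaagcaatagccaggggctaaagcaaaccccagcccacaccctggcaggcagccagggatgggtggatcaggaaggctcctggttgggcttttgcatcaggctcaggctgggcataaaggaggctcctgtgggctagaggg

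Windows were found for 8 of the 10 members (not for LY96 or LBP). The half-sites searched on both strands were AGGTCA and GGGTCA, together with GGTTCA as well as AGTTCA. CD14 held 1 (GGTTCA, whose first base lies at -69 from the start), IRAK2 held 1 (GGGTCA at -226) and IRAK1 held 1 (TGACCC at -100, the reverse complement of GGGTCA), while the windows of CAMP, MYD88, TLR2, TLR4 and TLR6 held none. Of all 27305 windows, 34.0% held at least 1 such half-site. None of the 8 held 2 of them as a direct repeat with 3 bases between, an arrangement present in 0.0659% of all windows. The AP-1 motif (TGAGTCA or TGACTCA) was in the CD14 window at -223 and in none of the other 7, against 4.16% of all windows, and the NF-kB consensus was in IRAK1's alone (at -114), against 9.57%. GAGGAA, the core bound by PU.1, was in the windows of CD14 (at -96), CAMP, MYD88, TLR4 and TLR6, and in 23.4% of all windows. GGGCGG, the SP1 motif, was in those of TLR2, TLR4, MYD88, IRAK1 and IRAK2, and in 42.3% of all windows. The C/EBP motifs TTGCNNAA and TTNCGCAA were in none of the 8 and in 9.13% of all windows. No match of 1 motif overlapped a match of another. These matches describe letters only. The candidate vitamin D response element that the study's list of predicted sites gives for CD14 is printed because it names the sequence proposed for the member with the largest change here, with its half-sites in capitals:
CD14 candidate element: GGGTCAaagAGTTGT
The first of its half-sites is 1 of the 4 searched and the second is not, and the element is not in the window printed for CD14. Its position is not given here, since the build of that list was not used.

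The arrays as a whole set the precision. The values are log2 intensities after gcRMA, and the median of an array lay between 3.02 and 3.20, so about as many probe sets of an array lie below a value near 3 as above it. No detection calls were used. A probe set was tested when it ranked among the top 26000 by its best third-highest array value within a group, which set a lower limit of 3.20 (log2). Arrays of 1 group differed mainly along a single axis, the leading principal component once group means were removed (71.9% of the variance). On this axis 4 arrays were over 0.3 away from the mean of their group. These were 2 arrays given 1,25(OH)2D for 24 h (replicates 1 and 4) and replicate 1 of vehicle at both 6 and 24 h. Calls of the members and of the listed genes that change without those 4 arrays are given beside the results. At 24 h that leaves treated replicates 2 and 3 and vehicle replicates 2, 3 and 4. The 4 were picked for their distance from their group mean, which narrows the spread within groups, so p-values without them tend to be too low. The hormone response was present in every treated array. CYP24A1, the enzyme that breaks down 1,25(OH)2D, lay between 8.90 and 13.90 (log2) on the 12 arrays with 1,25(OH)2D and between 3.48 and 4.51 on the 12 with vehicle.

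Of the 18 member probe sets, 8 were tested (CD14, CAMP, MYD88, 2 for IRAK1, 2 for IRAK2 and 1 for TLR4), which stand for 6 genes. CAMP passed this limit only in the groups given 1,25(OH)2D for 24 and 48 h, and CD14 in those given it for 6, 24 and 48 h and, barely, in vehicle at 48 h. A probe set that passes through the group where it is high had to differ. Neither the number that passed nor the counts of calls below, which include CD14 and CAMP, therefore say anything about the pathway. The test was limma's moderated test, with Benjamini-Hochberg adjustment over all 26000 probe sets and a call at an adjusted p under 0.05. At 6 h, 2 of the 8 were called (CD14 and IRAK2), where 2.69% of all tested probe sets were. At 24 h the call was CD14 alone, against 0.354% of all probe sets, and at 48 h there were 3 calls (CD14, CAMP and MYD88), against 9.63%.

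**Figure D1:**
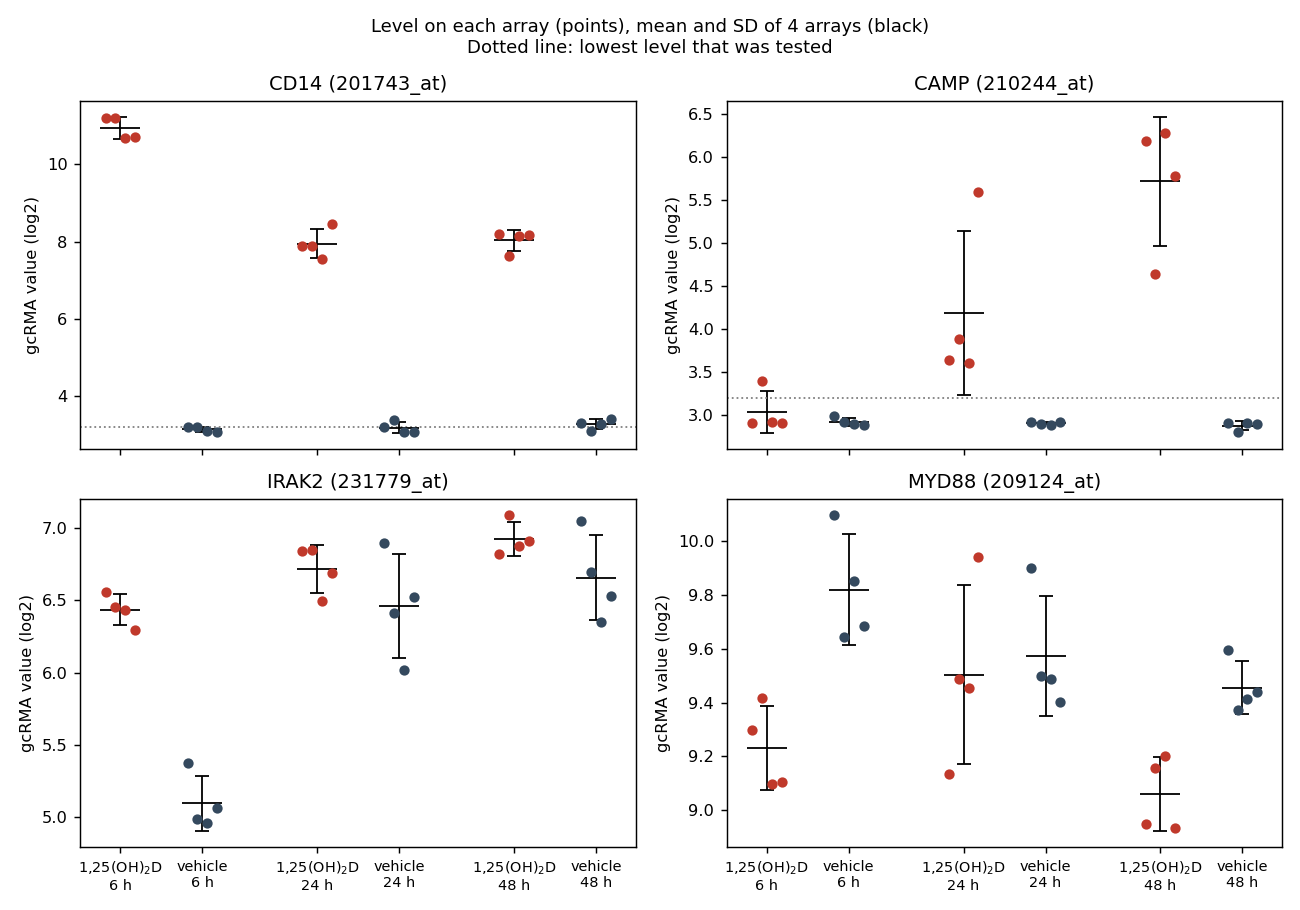
Level of CD14, CAMP, IRAK2 and MYD88 (gcRMA value, log2, vertical axis) on each of 24 arrays, with 1,25(OH)2D (red) left of vehicle (dark) at 6, 24 and 48 h. Points are arrays, black lines are the mean and SD of 4 arrays, and the dotted line is the lowest level tested (3.20). CD14 is at 7.54 or higher on every treated array, and CAMP at 4.64 or higher on the treated arrays at 48 h.

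CD14 was the member with the largest change. At 6 h its probe set read 11.19, 11.20, 10.67 and 10.71 (log2) on the arrays with 1,25(OH)2D, against 3.21, 3.19, 3.09 and 3.08 with vehicle. The groups lay far apart, with the lowest treated array at 10.67 and all vehicle arrays at the level of the array medians. The difference was 7.80 ± 0.14 (log2, standard error, n = 4 each, adjusted p = 1.06e-07 by limma), a ratio of mean linear values of 226.

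At 24 h the 4 values with 1,25(OH)2D were 7.88, 7.89, 7.54 and 8.46 (log2), against 3.22, 3.38, 3.08 and 3.08 with vehicle. The treated arrays were again all above the vehicle arrays, but lower than at 6 h. The difference was 4.75 ± 0.19 (log2, standard error, adjusted p = 2.03e-04 by limma), a ratio of 27.6, and without the arrays that stand apart it was 4.54 (adjusted p = 0.00478). When the replicate number entered the fit as a block, the call was lost (adjusted p = 0.0751), a fit in which 1 of all 26000 probe sets was called at 24 h. At 48 h CD14 read 8.19, 7.64, 8.15 and 8.17 with 1,25(OH)2D, against 3.31, 3.10, 3.28 and 3.41 with vehicle, and the difference was 4.76 ± 0.13 (adjusted p = 1.57e-06), a ratio of 27.4. Replicate 2 was the lowest of the treated arrays, and the groups did not overlap.

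The order of the group means of CD14 was therefore 10.94, 7.94 and 8.04 (log2) with 1,25(OH)2D at 6, 24 and 48 h, above 3.14, 3.19 and 3.27 with vehicle at these times. The treated means at 24 and 48 h differed by less than the spread of their arrays, as did the vehicle means of neighbouring times. The effect was smaller at 24 h than at 6 h (-3.04 ± 0.23, log2, adjusted p = 5.18e-08 in 1 fit of all 24 arrays), a comparison in which 2 member probe sets were called (CD14 and IRAK2) and 2.12% of all. It was smaller at 48 h than at 6 h by as much (-3.04 ± 0.23, adjusted p = 4.23e-08), where 3 members were called (CD14, IRAK2 and CAMP) and 2.8% of all. Between 48 and 24 h the effect on CD14 differed by 0.0084 (95% interval -0.48 to 0.49), and none of the 8 was called there by limma at an adjusted p under 0.05, against 0.0346% of all (CAMP alone had an unadjusted p under 0.05). Because the vehicle values lie near the array medians, the size of the effect depends on how low values are treated. With 32 added on the linear scale it was 5.61, 2.76 and 2.82 (log2) at 6, 24 and 48 h, and each was still called.

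CAMP, the cathelicidin gene, rose later. Its probe set read 2.92, 3.40, 2.92 and 2.92 (log2) with 1,25(OH)2D at 6 h, against 2.99, 2.92, 2.90 and 2.89 with vehicle. Replicate 2 alone stood above the vehicle arrays, and the difference of 0.11 (95% interval -0.17 to 0.40) did not pass the test (adjusted p = 1.00 by limma). At 24 h it read 3.65, 3.88, 3.61 and 5.60 with 1,25(OH)2D, against 2.92, 2.90, 2.89 and 2.93 with vehicle. Every treated array was above every vehicle array, with replicate 4, 1 of the 4 arrays that stand apart, far above the others. The difference of 1.27 ± 0.43 (log2) had an adjusted p of 0.456. Without replicate 4 it was smaller and was called (0.80, adjusted p = 0.0213), as it was without all 4 such arrays (0.84, adjusted p = 0.0146).

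At 48 h CAMP read 6.18, 4.64, 6.27 and 5.78 (log2) with 1,25(OH)2D, against 2.91, 2.81, 2.91 and 2.90 with vehicle. The treated arrays were spread over a wide range, and all of them were above vehicle. The difference was 2.84 ± 0.33 (log2, standard error, adjusted p = 0.00165 by limma), a ratio of mean linear values of 7.78, and it was 1.14 (adjusted p = 0.0135) with 32 added on the linear scale. The effect at 48 h exceeded that at 6 h by 2.72 ± 0.48 (adjusted p = 0.00170), and by 1.11 with 32 added on the linear scale. The differences of 1.16 between 24 and 6 h and of 1.56 between 48 and 24 h did not pass (adjusted p = 0.322 and 0.666), although the last was called without treated replicate 4 of 24 h (2.03, adjusted p = 0.0228) and without the 4 arrays that stand apart (2.00, adjusted p = 0.0386). Within the treated arrays, CAMP was higher at 24 h than at 6 h by 1.15 ± 0.34 (adjusted p = 0.0262), where the 2 member calls were CD14 and CAMP and 16.7% of all probe sets were called. It was also higher at 48 h than at 24 h by 1.53 ± 0.34 (adjusted p = 0.0209), the only member call there against 1.91% of all, and by 0.73 with 32 added on the linear scale. The first of these calls was lost with no filter, with 32 added on the linear scale, without the arrays that stand apart (adjusted p = 0.0609, 0.123 and 0.0902) and without treated replicates 3 or 4 of 6 h or replicate 4 of 24 h. The second was lost after a second quantile normalization, after median centring (adjusted p = 0.0892 and 0.0799) and without treated replicates 2 or 3 of 24 h or 1, 3 or 4 of 48 h. At 24 h the treated array with the highest CAMP, replicate 4, also had the highest CD14 (8.46) and the lowest CYP24A1 (8.90), and the part of that array's position on the main axis in these values was not tested.

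IRAK2, a kinase that carries the signal from MYD88, rose at 6 h in the brightest of its 3 probe sets. That probe set read 6.56, 6.46, 6.43 and 6.30 (log2) with 1,25(OH)2D, against 5.38, 4.99, 4.96 and 5.06 with vehicle. The lowest treated array was above the highest vehicle array. The difference was 1.34 ± 0.12 (log2, standard error, adjusted p = 5.42e-04 by limma), a ratio of 2.52, and it was 0.84 with 32 added on the linear scale. It read 6.84, 6.84, 6.49 and 6.69 with 1,25(OH)2D at 24 h, against 6.89, 6.41, 6.02 and 6.52 with vehicle. At 48 h it read 6.82, 7.09, 6.87 and 6.91, against 7.05, 6.69, 6.35 and 6.53. At both later times the groups overlapped, and the differences of 0.25 and 0.27 were not called (adjusted p = 0.601 and 0.326).

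The level of IRAK2 in vehicle cells differed between times. IRAK2 in vehicle cells was higher at 24 h than at 6 h by 1.37 ± 0.16 (log2, adjusted p = 9.96e-06; 0.86 with 32 added on the linear scale), the only member call in that comparison, against 7.82% of all probe sets. Between 48 and 24 h of vehicle 0 of the 8 members were called by limma, and 0 had an unadjusted p under 0.05, against 0.315% of all called. In treated cells IRAK2 was higher at 24 h than at 6 h by 0.28 (95% interval -0.047 to 0.61, adjusted p = 0.197). Its mean of 6.44 with 1,25(OH)2D at 6 h thus stood beside 6.46 with vehicle at 24 h. The effect at 24 h was smaller than at 6 h (-1.09 ± 0.22, log2, adjusted p = 0.00779), as was that at 48 h (-1.07 ± 0.22, adjusted p = 0.00739). Both calls were lost after a second quantile normalization (adjusted p = 0.160 and 0.0836) and after centring on the array medians (adjusted p = 0.161 and 0.0851), and both became smaller with 32 added on the linear scale (-0.65 and -0.63). The dimmer tested probe set of IRAK2 lay between 2.95 and 3.62 and was not called at any time, with differences of 0.029, -0.0055 and 0.087 (log2). The third was below the limit. The rise at 6 h therefore rests on the brightest probe set alone.

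MYD88, the adaptor that TLR2 and TLR4 share, was lower in treated cells at 48 h. Its probe set read 8.95, 9.16, 9.20 and 8.94 (log2) with 1,25(OH)2D, against 9.60, 9.37, 9.41 and 9.44 with vehicle. The groups did not overlap, and the difference was -0.39 ± 0.08 (log2, standard error, adjusted p = 0.0212 by limma), a ratio of 0.762. This call was lost with all 24 arrays in 1 fit (adjusted p = 0.186), with no filter (0.0520), with the replicate block (0.0934) and without vehicle replicate 4 (0.0564), treated replicate 1 (0.0514) or treated replicate 4 (0.0565). At 6 h MYD88 read 9.30, 9.42, 9.10 and 9.11 with 1,25(OH)2D, against 10.10, 9.64, 9.85 and 9.68 with vehicle. These groups also lay apart, but the difference of -0.59 (log2) did not pass (adjusted p = 0.0606), though it did with all 24 arrays in 1 fit (adjusted p = 0.0178). At 24 h it read 9.14, 9.49, 9.45 and 9.94, against 9.90, 9.50, 9.49 and 9.40, and the overlapping groups differed by -0.068 (95% interval -0.51 to 0.37). Without the arrays that stand apart, MYD88 was lower at 48 h than at 24 h in treated cells (-0.41, adjusted p = 0.0289, where 5.42% of all probe sets were called). The effects at the 3 times were not shown to differ from each other (adjusted p from 0.281 to 1.00).

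**Figure D2:**
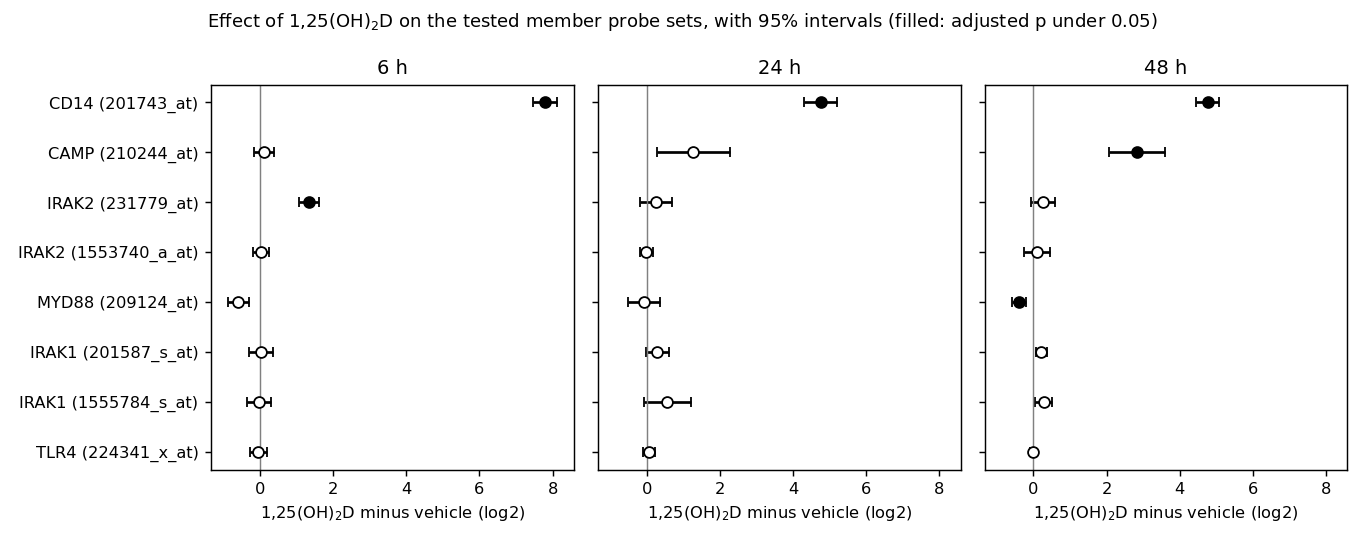
Difference between 1,25(OH)2D and vehicle (log2, horizontal axis) for the 8 tested member probe sets at 6, 24 and 48 h, with the 95% interval of limma's fit of 8 arrays. Filled circles have an adjusted p under 0.05: CD14 at all 3 times, the brighter IRAK2 at 6 h, and CAMP and MYD88 at 48 h.

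IRAK1, the kinase recruited with IRAK2, was not called in any of the 10 comparisons by limma (of 20 tests, 4 had an unadjusted p under 0.05). Its brighter probe set ranged from 12.26 to 12.98 (log2) over the 24 arrays, and the differences between 1,25(OH)2D and vehicle were 0.038, 0.29 and 0.21 at 6, 24 and 48 h (adjusted p from 0.0951 to 1.00). The dimmer one ranged from 6.41 to 7.83, with differences of -0.023, 0.57 and 0.28 (adjusted p from 0.157 to 1.00). At 48 h all 4 treated arrays of the dimmer one (7.24, 6.93, 6.86 and 6.72) were above the vehicle arrays (6.66, 6.59, 6.70 and 6.69), which did not make a call. At 24 h the difference of the dimmer one was called without the arrays that stand apart (0.72, adjusted p = 0.0184), as was its rise in treated cells between 6 and 24 h (0.48, adjusted p = 0.0121), in fits where 21.1% and 25.3% of all probe sets were called. At 48 h that of the brighter one was called without treated replicate 2 (0.27, adjusted p = 0.0153).

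The receptors, LY96 and LBP had low values, none above 3.72 (log2). TLR4 has 4 probe sets, of which 1 was tested (its suffix, x_at, marks probes that can bind other transcripts). It lay between 3.17 and 3.52 (log2), and its differences of -0.048, 0.069 and -0.0042 at 6, 24 and 48 h were not called (adjusted p from 0.620 to 1.00). The other 3 lay between 1.75 and 3.50, LY96 between 2.36 and 2.51, the 2 of TLR6 between 2.14 and 2.68 and the 2 of LBP between 1.84 and 2.36. TLR2 lay between 2.69 and 3.20 on 23 arrays and at 3.72 on the treated replicate 3 at 24 h. The vehicle replicate 3 at 24 h was the next highest, at 3.20. With no filter on low values, none of these 10 untested member probe sets was called in any of the 10 comparisons (lowest adjusted p = 0.202, for TLR2). Values at this level do not show that a transcript is absent, and with bulk RNA fewer cells that express a gene and less RNA per cell cannot be told apart.

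**Figure D3:**
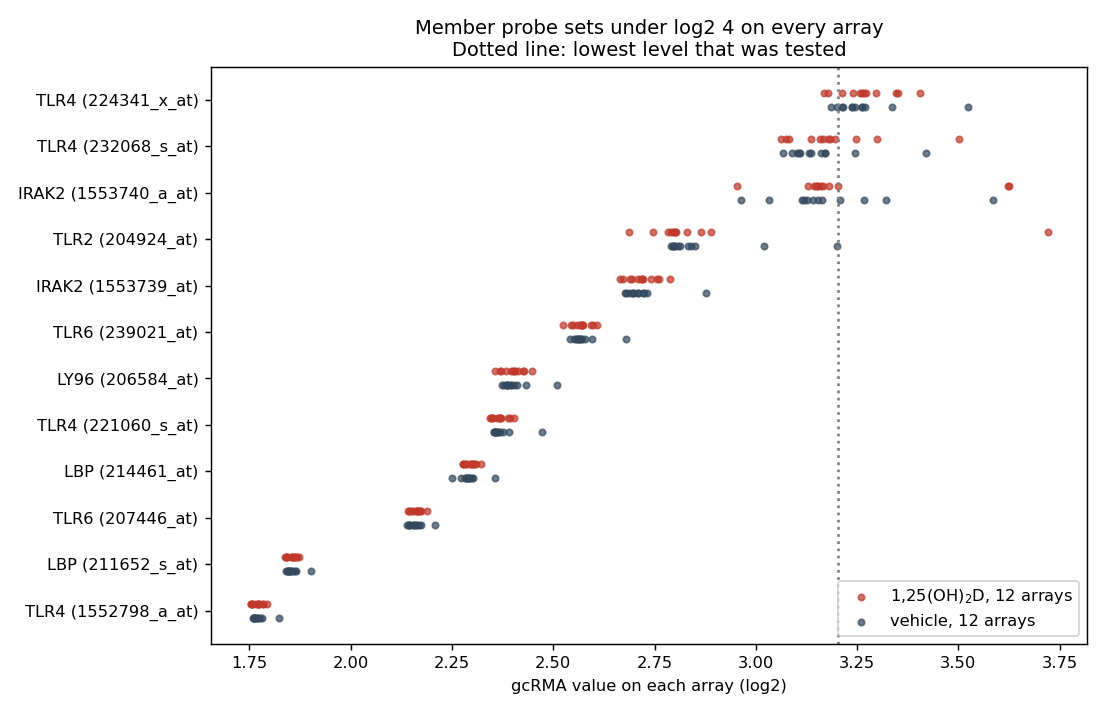
Value of each of 24 arrays (gcRMA, log2, horizontal axis) for the 12 member probe sets that stayed under 4, with 12 arrays with 1,25(OH)2D (red) above 12 with vehicle (dark) in each row. The dotted line is the lowest level tested (3.20), and TLR2 at 3.72 on 1 treated array is the highest point.

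Markers of other cells were looked at because CD14, TLR2, TLR4 and LY96 are abundant in monocytes. Of 18 leukocyte markers, 14 had a probe set with a single symbol. Their values summed per array to between 36.2 and 37.3 (log2) with 1,25(OH)2D and 36.5 and 38.6 with vehicle at 6 h, to between 36.8 and 38.6 against 36.4 and 37.4 at 24 h, and to between 36.3 and 37.1 against 36.5 and 36.9 at 48 h. The ranges of treated and vehicle arrays overlapped at each time. PTPRC and ITGAX were the only 2 that passed the limit, neither was called, and no marker of the 14 reached 4 on any array. The 6 epithelial markers (KRT5, KRT14, KRT8, KRT18, EPCAM and CDH1) averaged 13.0 to 13.3 per array, and 0 of them were called by limma at any time (1 had an unadjusted p under 0.05 at 6 h), though KRT8 was called higher in treated cells at 24 h without the arrays that stand apart (0.48, adjusted p = 0.0283). Of 5 luminal prostate markers 1 was tested and not called, and of 9 fibroblast and endothelial markers 3 were tested, with COL1A1 lower in treated cells at 48 h (9.58 against 10.18), a call that was lost with all 24 arrays in 1 fit (adjusted p = 0.0699).

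The genes whose levels followed CD14 most closely over the 24 arrays were CYP24A1 (Pearson's r = 0.989), PADI3 (0.979), ABTB3 (0.964), USP2 (0.963) and LOX (0.958). All 5 share the arrays and the treatment groups with CD14, and r is given as a description with no p. PADI3, an enzyme that converts arginine to citrulline in proteins, differed between 1,25(OH)2D and vehicle by 4.37, 3.58 and 3.24 (log2) at 6, 24 and 48 h, and LOX, which cross-links collagen, by 1.78, 0.74 and 1.20. Among the other tested members r was 0.43 for CAMP and 0.41 for the brighter tested probe set of IRAK2, and -0.56 for MYD88.

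The rest of the pathway was described with lists of genes, each gene by its brightest tested probe set (12010 genes in all). At 6 h, 2.36% of all genes rose and 1.04% fell, at 24 h 0.325% rose and 0.192% fell, and at 48 h 5.13% rose and 6.87% fell. Of 7 other surface receptors and co-receptors (TLR1, TLR5, TLR10, CD36, CD180, LY86 and SCARB1) only SCARB1, a lipoprotein receptor, was bright enough to test, and it was not called, with differences of -0.20, 0.19 and 0.11 (log2). Of 7 endosomal receptors and their chaperones 4 were tested (TLR3, UNC93B1, CNPY3 and HSP90B1), and of 19 adaptors and kinases 15 were. In neither list was any gene called at 6, 24 or 48 h by limma. At an unadjusted p under 0.05 there were 0, 1 and 1 genes of the 4 and 1, 1 and 2 of the 15 at these times. The median differences of the adaptors and kinases were -0.027, -0.11 and -0.0094 at 6, 24 and 48 h, beside -0.029, 0.011 and -0.0091 for all genes. Without the arrays that stand apart, 8.61% of all probe sets rose and 12.5% fell at 24 h, far more than with them. That fit held treated replicates 2 and 3 and vehicle replicates 2, 3 and 4, with a spread narrowed by the choice of arrays. In that fit 5 of the 15 adaptors and kinases fell (MAP3K7, PELI1, TAB2, TAB3 and TBK1) and 1 rose (TICAM1), and of the 4 endosomal genes HSP90B1 fell. PELI1 also fell at 6 h after median centring and with the replicate block (adjusted p = 0.0427 and 0.0311).

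**Figure D4:**
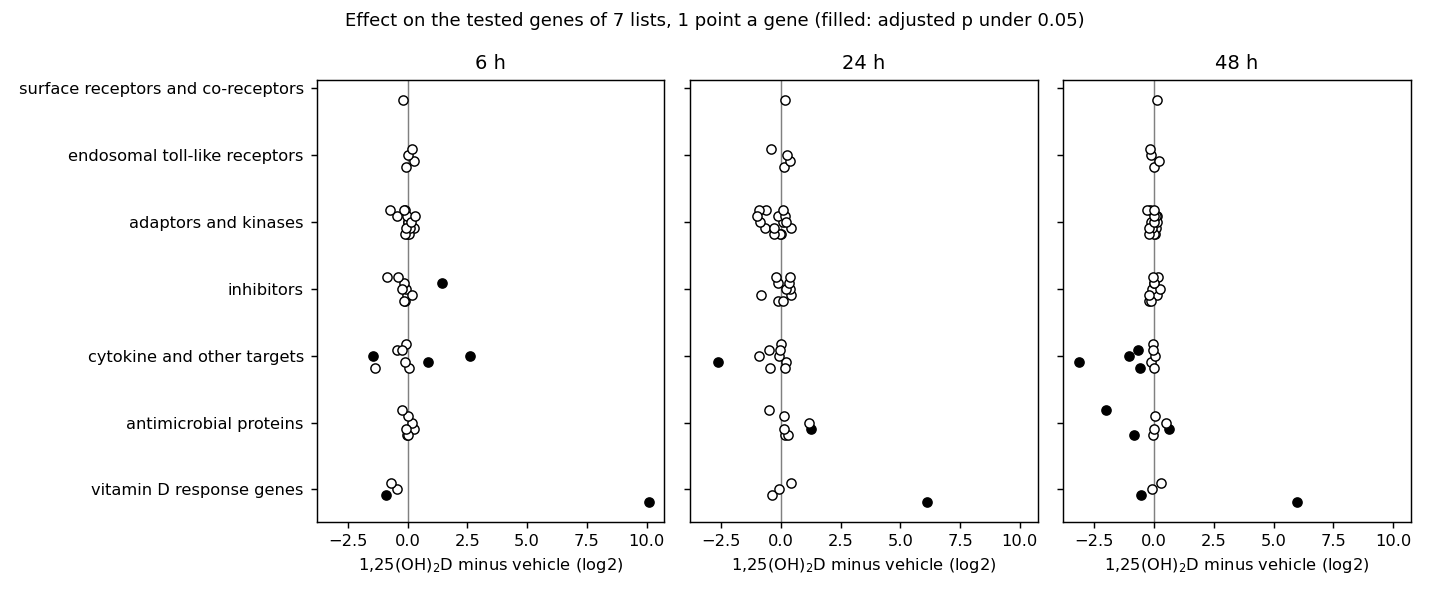
Difference between 1,25(OH)2D and vehicle (log2, horizontal axis) at 6, 24 and 48 h for the tested genes of 7 lists, 1 point a gene and 1 list a row. Filled points have an adjusted p under 0.05, and the row of adaptors and kinases holds none.

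Inhibitors of the pathway were 10 tested genes of 12, of which NFKBIA, the inhibitor that holds NF-kB in the cytoplasm, rose at 6 h and no other was called at any time with all arrays. Without the arrays that stand apart TOLLIP rose and IRAK3 fell at 24 h (0.55 and -0.57, adjusted p = 0.0403 and 0.0308). NFKBIA read 11.51, 11.42, 11.19 and 11.16 (log2) with 1,25(OH)2D at 6 h, against 10.14, 9.74, 9.84 and 9.80 with vehicle. The groups lay apart by over 1 log2 unit, and the difference was 1.44 ± 0.13 (adjusted p = 5.82e-04 by limma). At 24 h the treated arrays read 10.80 to 11.37 and the vehicle arrays 10.46 to 10.93, so the groups overlapped, and they did at 48 h as well, with a difference of 0.0075. The median difference of the 10 was -0.13, 0.16 and -0.027 at 6, 24 and 48 h.

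Of 9 tested cytokine genes and other NF-kB targets, 2 rose and 1 fell at 6 h, 1 fell at 24 h and 4 fell at 48 h. The falls at 24 and 48 h include CCL2, which passed the limit for testing only through vehicle at those times. Their counts therefore say nothing about the list. PTGS2, the inducible prostaglandin synthase, read 6.90, 6.43, 7.90 and 7.46 (log2) with 1,25(OH)2D at 6 h, against 3.72, 4.56, 5.04 and 4.86 with vehicle, a difference of 2.62 ± 0.38 (adjusted p = 0.00819 by limma), and of 1.66 with 32 added on the linear scale. IL1B, an inflammatory cytokine, rose at the same time by 0.86 ± 0.10 (adjusted p = 0.00326). Neither was called later, except that PTGS2 was lower in treated cells at 24 h without the arrays that stand apart (-0.72, adjusted p = 0.0299). IL6 fell instead, to 3.83, 3.31, 3.09 and 3.30 with 1,25(OH)2D at 6 h, against 4.84, 4.82, 4.90 and 4.72 with vehicle, and was lower at 48 h too (differences of -1.44 and -1.06, adjusted p = 0.00174 and 0.0218). With 32 added on the linear scale these were -0.50 and -0.43. Its difference of -0.92 at 24 h was called with all 24 arrays in 1 fit (adjusted p = 0.0377) and not in the fit of 8 arrays (0.353).

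CCL2, a chemokine that draws monocytes, read 2.68, 2.68, 2.53 and 2.49 (log2) with 1,25(OH)2D at 6 h, against 2.74, 2.82, 2.68 and 2.57 with vehicle. At 24 h it read 2.53, 2.77, 2.68 and 2.68, against 5.57, 5.58, 4.80 and 5.30, and at 48 h 2.65, 2.49, 2.51 and 2.52, against 5.67, 5.18, 5.72 and 6.22. The treated arrays stayed below the array medians while the vehicle arrays were higher at the later times. The differences were -2.65 ± 0.18 at 24 h (adjusted p = 0.00221) and -3.15 ± 0.19 at 48 h (adjusted p = 6.84e-05), and they were -0.91 and -1.16 with 32 added on the linear scale. The call at 24 h was lost with the replicate block (adjusted p = 0.181). CCL2 passed the limit for testing only in vehicle at 24 and 48 h, where it was high, so it had to differ at these times. IL1A, another inflammatory cytokine, read 8.08, 8.06, 9.01 and 8.83 with 1,25(OH)2D at 6 h, against 9.25, 9.80, 10.32 and 10.04 with vehicle. These groups lay apart, but the difference of -1.36 did not pass (adjusted p = 0.0595). It did with all 24 arrays in 1 fit, with the stricter filter, after a second quantile normalization, after centring, with the replicate block and without vehicle replicate 1 (adjusted p from 0.00552 to 0.0403). IL1A and CXCL2 fell at 48 h, by 0.60 and 0.67 on the log2 scale (adjusted p = 0.00378 and 0.0302). With all 24 arrays in 1 fit only CCL2 and IL6 fell at 48 h, and with no filter or with the replicate block only CCL2 and IL1A did. The call of CXCL2, whose probe set also has the suffix x_at, was lost with 32 added on the linear scale too (-0.45, adjusted p = 0.0545). The calls of IL6 (without vehicle replicates 1 or 4) and CXCL2 (without vehicle replicate 2 or any of the 4 treated replicates) also depended on single arrays, with adjusted p between 0.0515 and 0.0738 where they were lost.

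Of 23 antimicrobial proteins of epithelia other than CAMP 7 were tested. SLPI, a protease inhibitor with antibacterial activity, rose at 24 h and at 48 h. It read 11.81, 12.38, 12.28 and 12.57 (log2) with 1,25(OH)2D at 24 h, against 11.17, 10.81, 11.05 and 10.94 with vehicle, and the difference of 1.27 ± 0.17 had an adjusted p of 0.0338 by limma. At 48 h the difference was 0.63 ± 0.11 (adjusted p = 0.0121). The call at 24 h was lost with no filter, after median centring, with the replicate block and, when each of the 8 arrays was left out in turn, in every case but that of treated replicate 1 (adjusted p up to 0.643). Without the arrays that stand apart PI3, another such inhibitor, also rose at 24 h (1.41, adjusted p = 0.0116) and S100A8 fell (-0.78, adjusted p = 0.0234). S100A8 and S100A9, subunits of the zinc-binding antimicrobial protein calprotectin, fell at 48 h, S100A8 to 6.63, 6.93, 6.59 and 6.75 with 1,25(OH)2D, against 8.27, 8.49, 8.72 and 9.55 with vehicle. The differences were -2.03 ± 0.25 and -0.85 ± 0.21 (adjusted p = 0.00240 and 0.0425), and the call of S100A9 was lost with no filter, after a second quantile normalization and with 32 added on the linear scale (adjusted p = 0.126, 0.0546 and 0.0596), and without vehicle replicates 1 or 3 or any treated replicate (adjusted p from 0.0705 to 0.111).

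Among 4 genes of the vitamin D response, CYP24A1 was higher in treated cells by 10.08, 6.10 and 5.99 (log2) at 6, 24 and 48 h, called each time but at 24 h with the replicate block (adjusted p = 0.182). VDR, the receptor itself, was lower at 6 h (-0.90, adjusted p = 6.67e-04 by limma) and at 48 h (-0.53, adjusted p = 0.0142). CYP24A1 had, like CD14, a smaller effect at 24 h and at 48 h than at 6 h (-3.99 ± 0.43 and -4.09 ± 0.43, log2, adjusted p = 4.98e-06 and 3.79e-06). VDR was also called lower at 24 h with all 24 arrays in 1 fit (-0.35, adjusted p = 0.0351) and without the arrays that stand apart (-0.30, adjusted p = 0.0424). RXRA, its partner in binding DNA, was called lower at 6 h with all 24 arrays in 1 fit and with 32 added on the linear scale (-0.44 and -0.43, adjusted p = 0.0218 and 0.0371) and not otherwise at 6 h. CYP27B1 was not called with all arrays. Without treated replicate 2 of 48 h, 2 of the 4 genes rose at 48 h, CYP24A1 and either RXRA or CYP27B1. In that fit 1483 of all 26000 probe sets rose.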

How the data were processed

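Total RNA of RWPE1 cells was hybridised to Affymetrix whole-genome arrays, 1 array a sample. The deposited values are log2 intensities that the authors obtained with gcRMA, which corrects the background, normalizes all 24 arrays together by quantiles and summarises each probe set; its version is not given in the sources used here. The 62 control probe sets were left out, and all 24 value columns were used. The MAS5 present calls and SAM tests of the methods were not run here. Treated and vehicle arrays of each time (8 arrays) were compared with limma 3.58.1 (lmFit, eBayes) in R 4.3.3, and differences between times in 1 fit of 24 arrays with 6 group means. The number tested (26000) is close to that of the study's filter. Gene symbols come from the platform annotation. Tables and figures were made with Python 3.11.15, pandas 2.3.3, scipy 1.17.1 and matplotlib 3.10.9. The fit was tested on simulated data.

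The members and lists were chosen with earlier results of these data known. Named are all member probe sets, CYP24A1, the 5 genes most like CD14, and of each list up to 2 called rises and 2 falls a time, or all where 5 or fewer were called. Alternatives were all arrays in 1 fit, no filter, a stricter filter (15000 probe sets, lowest value 6.70), a second quantile normalization, median centring, adding 32 to the linear values, a trended and robust variance in eBayes, a block for the replicate number, and each array left out in turn. Leaving out the 4 arrays that stand apart was added after the data were seen. The number of arrays limits the precision. The RT-PCR and receptor binding data of the study were not analysed here.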

Additional observations from a re-analysis of the deposited data

Results flagged for a closer look

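Single arrays far from the other 3 of their group were looked for in 180 groups of member and named probe sets, and 15 were found. Chance alone marks about 1 in 20 groups. CD14 read 7.64 (log2) on 1,25(OH)2D replicate 2 at 48 h, below the other treated arrays (8.15 to 8.19). CAMP read 3.40 on 1,25(OH)2D replicate 2 at 6 h (others at 2.92), 5.60 on 1,25(OH)2D replicate 4 at 24 h (others 3.61 to 3.88) and 2.81 on vehicle replicate 2 at 48 h (others 2.90 to 2.91). TLR2 was high on replicate 3 of both groups at 24 h, at 3.72 with 1,25(OH)2D (others 2.83 to 2.89) and 3.20 with vehicle (others 2.79 to 2.81). Vehicle replicate 1 at 24 h was the highest of its group for the dimmer probe set of IRAK1 (7.23, others 6.41 to 6.51), LY96 (2.43), 1 probe set of LBP (1.86) and 2 of TLR4 (1.78 and 2.39). It is 1 of the 4 arrays that stand apart. Vehicle replicate 1 at 6 h, another of them, was the highest for 1 probe set of TLR6 (2.68) and CYP24A1 (4.06, others 3.48 to 3.57). The dimmer tested probe set of IRAK2 read 3.18 on 1,25(OH)2D replicate 4 at 24 h (others 3.14 to 3.15), and CXCL2 read 6.43 on vehicle replicate 3 at 6 h (others 5.69 to 5.74).

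Differences of the effect of 1,25(OH)2D between times, from limma's fit of all 24 arrays, passed the test 18 times among the named probe sets. Of all probe sets 2.12%, 2.8% and 0.0346% passed for 24 minus 6, 48 minus 6 and 48 minus 24 h. The genes named from the lists were picked for an effect called in these same arrays. That favours a difference between times, so the 18 are a description only. Relative to 6 h the effect was lower at 24 and 48 h for CD14 (-3.04 at both, log2, adjusted p = 5.18e-08 and 4.23e-08), CYP24A1 (-3.99 and -4.09, adjusted p = 4.98e-06 and 3.79e-06), CCL2 (-2.54 and -3.05, adjusted p = 8.83e-07 and 5.35e-08) and PTGS2 (-2.71 and -2.60, adjusted p = 0.0111 and 0.0128). The same held for NFKBIA (-1.09 and -1.43, adjusted p = 0.00145 and 5.76e-05), IL1B (-0.67 and -0.99, adjusted p = 0.00210 and 2.25e-05) and the brighter IRAK2 probe set (-1.09 and -1.07, adjusted p = 0.00779 and 0.00739). Against 6 h, S100A8 had a lower effect at 48 h (-1.79, adjusted p = 0.00244) and CAMP a higher one (2.72, adjusted p = 0.00170). SLPI (1.00, adjusted p = 0.0271) and VDR (0.55, adjusted p = 0.0182) had a higher effect at 24 h than at 6 h. Lower and higher here keep the sign of the effect. The lower effects of CCL2 and S100A8 were stronger falls, and those of the other genes were rises over vehicle of the same time that became weaker or absent. For NFKBIA and the brighter IRAK2 probe set the vehicle level was itself higher at 24 h than at 6 h. The higher effect of VDR was a weaker fall, and those of SLPI and CAMP were stronger rises.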

How the results depend on the processing

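Members called at 24 h numbered 1, but 0 with the replicate block and 3 without the 4 arrays that stand apart. In that last fit 21.1% of all probe sets were called. For the change in effect between 6 and 24 h there were 2, but 1 after a second quantile normalization or median centring. Between 24 and 48 h there were 0, but 1 without those arrays, where 142 of all 26000 probe sets were called. In 1,25(OH)2D cells there were 2 at 24 against 6 h, but 1 with no filter, the stricter filter or the linear offset. At 48 against 24 h there was 1, but 0 with the stricter filter, the second quantile normalization or centring. Without those arrays there were 2, and 5.42% of all probe sets were called. The stricter filter removed CAMP itself. Leaving out single arrays gave 1 to 2 members at 24 h, 2 to 4 at 48 h, 0 to 1 for 48 minus 24 h, and 1 to 4 and 0 to 2 for the last pair, and left the other counts as they were. The highest of the last pair came without treated replicate 1 of 24 h, where 10109 and 1946 of all 26000 probe sets were called. The replicate block gave 2, 0 and 2 members at 6, 24 and 48 h, and 824, 1 and 1353 of all probe sets. The replicate numbers were not taken as pairs, since over all times only 4 of 12 same-numbered pairs deviated together (r over 0.1, range -0.889 to 0.756). This does not hold at 6 h, where replicates 1, 3 and 4 deviated together (r = 0.756, 0.588 and 0.670) and replicate 2 did not (-0.366). There the block called 824 probe sets, against 699 without it.

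Small differences turned their sign. Centring gave 0.098 for MYD88 at 24 h, 0.16 for the dimmer IRAK2 at 24 h and 0.032 for TLR4 at 48 h. Without the arrays that stand apart MYD88 at 24 h was 0.0077, TLR4 at 6 h 0.028 and the dimmer IRAK1 at 6 h 0.095. The 48 minus 24 h effect was -0.036 and -0.12 for CD14 with the second quantile normalization and centring, and for the brighter IRAK2 -0.11 and -0.12, and -0.084 without those arrays. With single arrays left out the ranges crossing 0 were -0.0092 to 0.15 for CAMP at 6 h, -0.12 to 0.18 for CD14 and -0.13 to 0.16 for the brighter IRAK2 at 48 minus 24 h, -0.12 to 0.095 and -0.033 to 0.13 for the dimmer and brighter probe sets of IRAK1 at 6 h, -0.013 to 0.085 and -0.049 to 0.047 for the dimmer IRAK2 at 6 and 24 h, -0.21 to 0.055 for MYD88 at 24 h, and -0.085 to 0.028 and -0.012 to 0.0078 for TLR4 at 6 and 48 h. The cause was not tested.

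Over all probe sets, 699, 92 and 2505 were called at 6, 24 and 48 h, with 608 to 1082, 1 to 5497 and 975 to 2505 under the alternatives; the 1 came with the replicate block and the 5497 without the arrays that stand apart. For the effect at 24 minus 6, 48 minus 6 and 48 minus 24 h, 550, 727 and 9 had ranges of 405 to 1050, 466 to 1417 and 2 to 142. Within vehicle 2033 and 82 had 1534 to 2742 and 57 to 755, and within 1,25(OH)2D 4345 and 496 had 3011 to 6579 and 379 to 1408. With single arrays left out the counts at 6, 24 and 48 h were 431 to 818, 26 to 109 and 1609 to 3539. For the 3 changes in effect they were 398 to 994, 569 to 738 and 3 to 53, within vehicle 1457 to 2202 and 39 to 119, and within 1,25(OH)2D 2173 to 10109 and 199 to 1946. The lowest at 6, 24 and 48 h came without vehicle replicate 2, and the highest within 1,25(OH)2D without replicate 1 of 24 h. Centring moved the median of all by 0.17 (log2) at 24 h. The split at 24 h was 62 higher and 30 lower, but 2238 and 3259 without the arrays that stand apart, 73 and 57 with the linear offset and 37 and 12 with centring. For the effect at 48 minus 24 h it was 6 and 3, but 2 and 8 with centring and 52 and 90 without the arrays that stand apart. With centring it was 626 and 908 for vehicle at 24 against 6 h (1039 and 994 without), 24 and 65 at 48 against 24 h (39 and 43 without), and 56 and 411 for 1,25(OH)2D at 48 against 24 h (146 and 350 without). The low values of the receptors limit what could be seen of them.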
